A study of Mus musculus with 28 samples.

Results

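When brain tissue is damaged, astrocytes enlarge, rebuild their intermediate filament skeleton and raise a set of genes that is used to mark the reactive state. The 10 genes described here are Gfap (ENSMUSG00000020932), Vim (ENSMUSG00000026728), Serpina3n (ENSMUSG00000021091), Lcn2 (ENSMUSG00000026822), Cd44 (ENSMUSG00000005087), Osmr (ENSMUSG00000022146), S100a6 (ENSMUSG00000001025), Timp1 (ENSMUSG00000001131), Cp (ENSMUSG00000003617) and Steap4 (ENSMUSG00000012428). They were taken by symbol from 55487 gene IDs, of which 55141 had a symbol, and all 10 had enough counts to be tested. Gfap and Vim encode the glial intermediate filament proteins GFAP and vimentin. Serpina3n is a secreted protease inhibitor, Timp1 an inhibitor of metalloproteinases, and Lcn2 a secreted lipocalin that binds siderophores. Cd44 is a receptor for hyaluronan and Osmr the receptor subunit for oncostatin M, a cytokine of the IL-6 family that signals through STAT3. S100a6 is a calcium-binding protein, Cp a ferroxidase of the blood and of astrocytes, and Steap4 a metalloreductase. Astrocytes are not the only brain cells that hold these transcripts: Vim and Cd44 are also known from vascular and immune cells, and Cp and Timp1 from the choroid plexus and meninges.

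The libraries are bulk mRNA profiles of the hippocampus of mice aged 9 months, taken after behaviour tests, with 3 libraries in each of 8 genotype groups. The Ripk1 cohort holds WT, 5xFAD, Ripk1D138N/D138N and Ripk1D138N/D138N with 5xFAD, called D138N and D138N 5xFAD below. The Zbp1 cohort holds WT, 5xFAD, Zbp1-/- and Zbp1-/- with 5xFAD, called KO and KO 5xFAD. The 5xFAD line carries transgenes under the neuronal Thy1 promoter and deposits amyloid. RIPK1 is a kinase of cell death and inflammation whose activity the D138N mutation removes, and ZBP1 is a sensor of Z-form nucleic acids that can engage RIPK1 and RIPK3. Each mutant line was compared only within its cohort. As the labels tie no library to an animal, a p-value reflects the spread among the libraries at hand, which may be technical. Levels are CPM, counts scaled to a library of 1000000, on 1 scale over all 24 libraries. They carry no correction for transcript length, so levels of different genes are not compared.

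Library totals were 16624325 to 44801371 counts in the Ripk1 cohort. The Zbp1 cohort had 27144481 to 34640479, except for its WT replicate 1 with 8362348. Thy1, whose promoter drives the transgenes, was at 1474 to 2703 CPM in all 12 carriers and 516 to 672 CPM in all 12 noncarriers. Zbp1 was at 1.83 to 3.61 CPM in the 5xFAD libraries of its cohort and 0.301 to 0.354 CPM in KO 5xFAD. Among its noncarriers Zbp1 was at 0, 0.389 and 0.101 CPM in WT and 0, 0 and 0.321 CPM in KO, so its level did not separate those 2 groups. Ripk1 itself does not check the D138N label, since a point mutation need not change its level. Some libraries stood apart. Malat1 was at 1008 CPM in Zbp1 cohort WT 2 and 805 CPM in 5xFAD 2. Fos was at 514 CPM in Ripk1 cohort 5xFAD 1, and choroid plexus markers summed to between 52.3 and 4946 CPM across libraries, with high and low libraries in most groups.

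The promoters of the members are shown because the receptor Osmr and the IL-6 family signal through STAT3, a factor that binds the letters TTCNNNGAA. The 250 bases before the start site of each member were read from RefSeq (GRCm38.p6), which gave 11 windows for the 10 genes. The first 2 sequences belong to the members with the largest called changes in the Ripk1 cohort, and the third is the only member window with a TTCNNNGAA match, marked in capitals. Each is written 5′ to 3′ on the strand of the gene, and ends at the base before the start.
Gfap, chr11:102897201-102897450, minus strand: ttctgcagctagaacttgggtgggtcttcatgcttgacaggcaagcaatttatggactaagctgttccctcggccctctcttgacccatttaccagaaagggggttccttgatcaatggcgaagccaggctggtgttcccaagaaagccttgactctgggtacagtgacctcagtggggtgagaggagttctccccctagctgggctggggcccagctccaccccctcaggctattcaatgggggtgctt
Serpina3n, chr12:104406458-104406707, plus strand: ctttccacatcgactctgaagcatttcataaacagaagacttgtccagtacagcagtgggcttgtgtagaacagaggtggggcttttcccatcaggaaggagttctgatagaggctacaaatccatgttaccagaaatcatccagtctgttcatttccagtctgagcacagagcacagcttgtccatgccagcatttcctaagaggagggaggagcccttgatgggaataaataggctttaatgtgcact
Steap4, chr5:7960222-7960471, plus strand: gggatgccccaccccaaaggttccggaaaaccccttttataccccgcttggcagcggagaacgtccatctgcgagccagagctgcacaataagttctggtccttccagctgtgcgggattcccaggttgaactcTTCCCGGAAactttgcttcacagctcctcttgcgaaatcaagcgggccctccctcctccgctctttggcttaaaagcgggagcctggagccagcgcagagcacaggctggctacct
The Steap4 match, TTCCCGGAA, began 116 bases upstream of the start. This motif reads the same on both strands, and it was present in 7.02% of all 32851 windows of the same length, and for 8.13% of genes. It was found in 1 of 10 members. The AP-1 letters TGANTCA, also the same on both strands, were present in 6.75% of windows, for 7.82% of genes and in 1 member, Cp. That match began 177 bases upstream in the Cp window chr3:19956804-19957053, and the other Cp window held none. The NF-kB motif, searched on both strands, was present in 7.25% of windows, for 8.23% of genes and in 2 members, Steap4 and Vim. Of these genes, Gfap, Serpina3n and Vim rose in 5xFAD, as described next, while Steap4 and Cp did not pass the test. A match or its absence in this window says nothing of whether the factor binds the gene.

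The first comparison asked how the members differ between 5xFAD and WT in each cohort. Gfap, Vim, Serpina3n, Cd44, Osmr and S100a6 rose in both, by between 2.79-fold and 6.44-fold, and Lcn2, Timp1, Cp and Steap4 did not pass the test in either. In the Ripk1 cohort 6 of 10 members were called, all of them higher, beside 8.11% of all genes called higher. The Zbp1 cohort also had 6 of 10, all higher, beside 3.0% of all genes. The median log2 fold change of the members was 1.89 and 1.66, against 0.02 and 0 over all genes tested. A call is an adjusted p below 0.05 in edgeR's quasi-likelihood test, with the Benjamini-Hochberg adjustment over all genes of the cohort. In bulk tissue, more cells of a type and more RNA per cell cannot be told apart.

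The 2 filament genes rose in both cohorts. Gfap in the Ripk1 cohort was at 396, 289 and 398 CPM in WT and 2301, 2356 and 2280 CPM in 5xFAD. The 5xFAD libraries lay close together and far above WT, a log2 fold change of 2.69 ± 0.15 (SE, adjusted p = 1.14e-07 in edgeR). Gfap of the Zbp1 cohort was at 567, 492 and 461 CPM in WT and 3681, 2600 and 2108 CPM in 5xFAD. Here 5xFAD replicate 1 was the highest of all 24 libraries, and the log2 fold change was 2.46 ± 0.17 (edgeR adjusted p = 5.62e-06). Vim went from 34.2, 44.2 and 38.5 CPM to 167, 156 and 128 CPM in the Ripk1 cohort, a log2 fold change of 1.95 ± 0.18 (edgeR adjusted p = 1.03e-05). The Zbp1 cohort went from 49.6, 50.4 and 46.5 CPM to 221.3, 137.8 and 113.7 CPM, with 1.69 ± 0.22 (edgeR adjusted p = 0.000379). The groups did not overlap for either gene in either cohort.

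**Figure D1:**
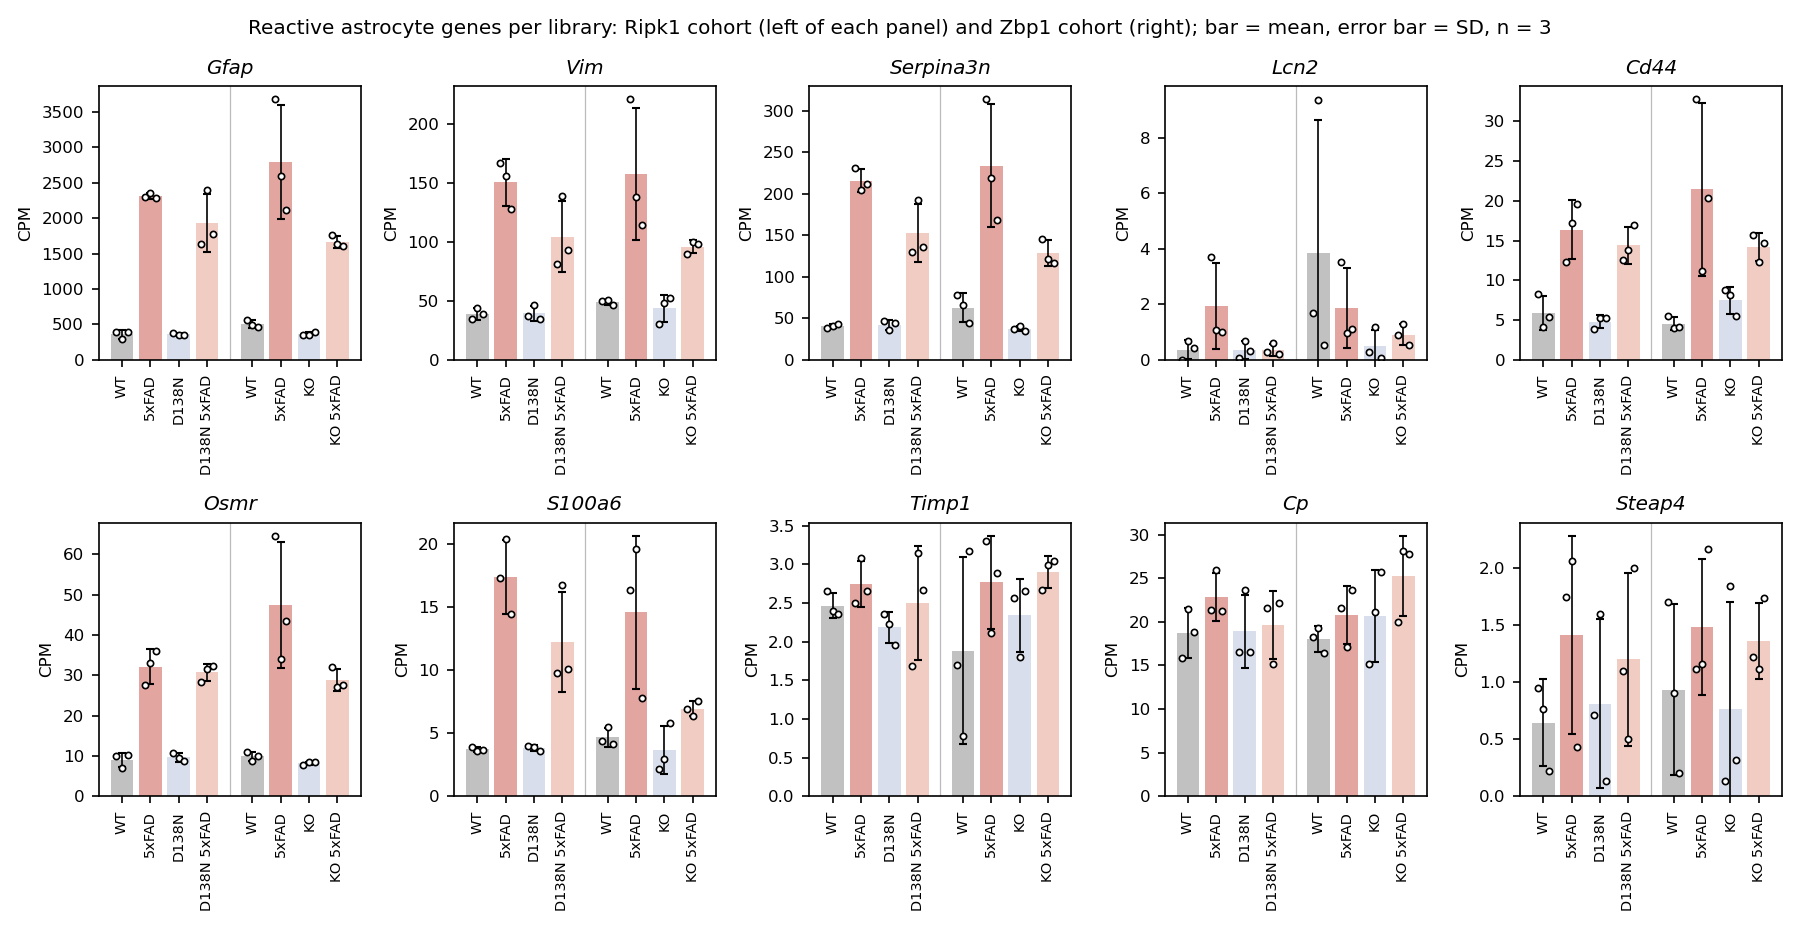
CPM of each of the 10 genes in the 24 hippocampal libraries, with Ripk1 cohort groups on the left of each panel and Zbp1 cohort groups on the right. Bars are means, error bars SD over 3 libraries and circles single libraries, each panel on its own linear axis. Gfap, Vim, Serpina3n, Cd44, Osmr and S100a6 are higher in all carriers than in all noncarriers of the same cohort, while Lcn2 is highest in 1 WT library at 9.36 CPM.

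Serpina3n, the secreted inhibitor, was at 38.6, 41.2 and 43.7 CPM in WT and 231, 204 and 212 CPM in 5xFAD of the Ripk1 cohort. It rose 5.26-fold there, with a log2 fold change of 2.39 ± 0.14 (edgeR adjusted p = 1.68e-07). Among Zbp1 cohort libraries it was at 78.0, 66.4 and 44.0 CPM in WT and 314, 219 and 168 CPM in 5xFAD. WT varied more here than in the Ripk1 cohort, yet the groups did not overlap and the gene rose 3.73-fold (log2 fold change 1.90 ± 0.22, edgeR adjusted p = 0.000136). Mouse Serpina3n is 1 of a cluster of near-identical copies, and how reads were split among them is not known here. Of its 10 listed paralogs, 4 were tested. Serpina3i was called higher in the Ripk1 cohort (3.43 ± 0.95, edgeR adjusted p = 0.0262) and was at 1.72 ± 1.11 (edgeR adjusted p = 0.623) in the Zbp1 cohort, and the other 3 passed in neither. The Serpina3i call was lost without WT 1, WT 3, 5xFAD 2 or 5xFAD 3, and with the 2 genotypes fitted alone.

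The 2 cell surface receptors rose in both cohorts. Cd44 was at 8.32, 4.11 and 5.35 CPM in WT and 12.3, 17.2 and 19.6 CPM in 5xFAD of the Ripk1 cohort, a log2 fold change of 1.48 ± 0.25 (edgeR adjusted p = 0.00149). Zbp1 cohort values were 5.46, 4.02 and 4.08 CPM in WT and 32.8, 11.2 and 20.3 CPM in 5xFAD, with 2.27 ± 0.33 (edgeR adjusted p = 0.000784). The 3 Zbp1 cohort 5xFAD libraries were spread widely, and the lowest still lay above every WT library. Osmr was at 9.98, 7.02 and 10.2 CPM in WT and 27.5, 33.0 and 36.0 CPM in 5xFAD of the Ripk1 cohort, with a log2 fold change of 1.84 ± 0.15 (edgeR adjusted p = 3.13e-06). Osmr of the Zbp1 cohort was at 11, 8.81 and 10.1 CPM in WT and 64.7, 34.0 and 43.6 CPM in 5xFAD, with 2.26 ± 0.21 (edgeR adjusted p = 2.38e-05). As for Gfap, Vim, Serpina3n and Cd44, 5xFAD replicate 1 of the Zbp1 cohort was the highest library of all.

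S100a6, the calcium-binding protein, was at 3.92, 3.58 and 3.68 CPM in WT and 17.3, 20.4 and 14.5 CPM in 5xFAD of the Ripk1 cohort. It rose 4.69-fold (log2 fold change 2.23 ± 0.21, edgeR adjusted p = 8.61e-06). In the Zbp1 cohort it was at 4.37, 5.54 and 4.12 CPM in WT and 16.4, 19.6 and 7.83 CPM in 5xFAD, a log2 fold change of 1.63 ± 0.36 (edgeR adjusted p = 0.02). The groups did not overlap, but 5xFAD 3 lay far below the other 2 and the call depended on single libraries. It was lost without 5xFAD 1 (1.54, adjusted p = 0.0768), without WT 1 (1.59, adjusted p = 0.084) and without WT 3 (1.53, adjusted p = 0.11).

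Lcn2 differed between the cohorts in sign without a call in either. In the Ripk1 cohort it was at 0, 0.669 and 0.439 CPM in WT and 3.72, 1.08 and 0.987 CPM in 5xFAD, so the groups did not overlap. Its log2 fold change was 2.34 ± 0.91 (edgeR adjusted p = 0.101). DESeq2 called it (2.37, adjusted p = 0.0367), as did edgeR with no filter on low counts (adjusted p = 0.0115), and the authors' deposited table lists 2.37 with an adjusted p of 0.0153. Without 5xFAD 1 the value was 1.48. Lcn2 of the Zbp1 cohort was at 1.70, 9.36 and 0.540 CPM in WT and 3.52, 0.983 and 1.10 CPM in 5xFAD, with -1.09 ± 0.91 (edgeR adjusted p = 0.741). Replicate 2 of WT held the highest Lcn2 value of all 24 libraries. Without the libraries WT 2 and 5xFAD 2, in which Malat1 was low, it was 1.19 (edgeR adjusted p = 0.581), and the 6 called members remained called. In WT 2 choroid plexus markers summed to 4946 CPM, the highest sum of the series. They summed to 4843 CPM in 5xFAD 2, where Lcn2 was at 0.983 CPM, and their part in the Lcn2 level was not tested. Without WT 2 alone the log2 fold change was 0.86 (edgeR adjusted p = 0.747). The difference of the 5xFAD effect between cohorts was 3.42 ± 1.39 for Lcn2 (unadjusted p = 0.0221, adjusted p = 0.467 in edgeR).

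Timp1, Cp and Steap4 overlapped between 5xFAD and WT in both cohorts. Timp1 was at 2.36 to 2.65 CPM in WT and 2.50 to 3.08 CPM in 5xFAD of the Ripk1 cohort, with a log2 fold change of 0.16 ± 0.23 (edgeR adjusted p = 0.696). Across Zbp1 cohort libraries its range was 0.778 to 3.17 CPM in WT and 2.11 to 3.30 CPM in 5xFAD, with 0.54 ± 0.41 (edgeR adjusted p = 0.71). Cp lay between 15.2 and 28.1 CPM in every library of the series, and its log2 fold changes were 0.30 ± 0.18 and 0.21 ± 0.20 (edgeR adjusted p = 0.289 and 0.799). Steap4 rested on few reads, 6 to 75 counts in the WT and 5xFAD libraries, and its log2 fold changes were 1.11 ± 0.77 and 0.81 ± 0.82 (edgeR adjusted p = 0.378 and 0.81). With SE this wide, an absence of a call does not show that Steap4 was unchanged.

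**Figure D2:**
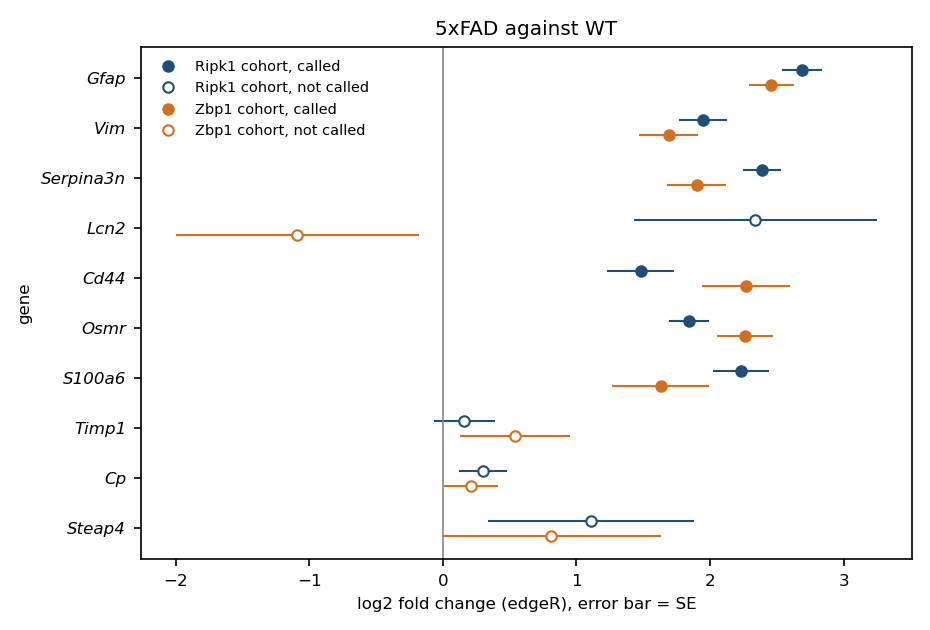
Log2 fold change of 5xFAD against WT for the 10 genes, Ripk1 cohort in blue and Zbp1 cohort in orange, from edgeR. Error bars are SE and filled points are called at an adjusted p below 0.05. The same 6 genes are filled in both cohorts, from 1.48 to 2.69, and Lcn2 lies at 2.34 in one and -1.09 in the other.

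None of the 10 members was called for a different 5xFAD effect in the 2 cohorts, in a fit of all 24 libraries in which 0.0% of 22565 genes were called by edgeR. DESeq2 called 0 members, beside 0.182% of genes. At an unadjusted p below 0.05 there was 1 of 10, Lcn2, beside 9.14% of all genes. For the 6 raised members the difference, Ripk1 minus Zbp1 cohort, ran from -0.81 ± 0.43 for Cd44 to 0.59 ± 0.43 for S100a6, with Osmr at -0.43 ± 0.26, Gfap at 0.21 ± 0.22, Vim at 0.26 ± 0.30 and Serpina3n at 0.48 ± 0.27. Timp1, Cp and Steap4 were at -0.38 ± 0.48, 0.08 ± 0.28 and 0.27 ± 1.20. With no filter on low counts, Lcn2 was called (adjusted p = 0.00526).

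Microglial markers rose with the members. All 9 microglial markers were called higher in the Ripk1 cohort, and 8 of 9 were in the other. Their summed level was 243 to 340 CPM in WT and 874 to 922 CPM in 5xFAD of the Ripk1 cohort, and 309 to 375 and 805 to 1420 CPM in the Zbp1 cohort. The general astrocyte markers, 15 genes such as the glutamate transporter Slc1a2 and the water channel Aqp4, did not follow the reactive genes in sum. They summed to 9559 to 11435 CPM in WT and 8353 to 8946 CPM in 5xFAD of the Ripk1 cohort, and to 9808 to 11083 and 10691 to 11889 CPM in the Zbp1 cohort. Among them 5 were called higher and 3 lower in the Ripk1 cohort, and 4 higher and 0 lower in the Zbp1 cohort. Aqp4 rose by 0.84 ± 0.13 and 1.11 ± 0.13, and Slc1a2 fell by 0.71 on the log2 scale in the Ripk1 cohort (edgeR adjusted p = 0.00788) and was at 0.06 ± 0.19 in the Zbp1 cohort. Neutrophil and peripheral myeloid markers, which bear on Lcn2, summed to 5.55 to 11.9 CPM in the WT and 5xFAD groups. Of these 11 markers only Ly6g was at 0 in all 5xFAD libraries of both cohorts, and the others had reads in each 5xFAD group. Endothelial and mural markers summed to 449 to 608 CPM in these groups, and fibroblast and meningeal markers to 48.9 to 114 CPM. The part of these cells in the members' levels was not tested.

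The mutant backgrounds alone were compared with WT. In D138N against WT 0 of 10 members were called, beside 0.0% of all genes, and 0 of 10 had an unadjusted p below 0.05 in edgeR, beside 2.4% of all genes. DESeq2 called 0, beside 0.0% of genes. The largest difference in size was that of Steap4, 0.32 ± 0.78. Gfap was at 384, 357 and 351 CPM in D138N and its log2 fold change against WT was 0.02 ± 0.14. Vim, Serpina3n, Osmr, S100a6 and Cp lay between 0.02 and 0.10, and Lcn2, Timp1 and Cd44 were at -0.05 ± 0.96, -0.17 ± 0.23 and -0.29 ± 0.25. In KO against WT 0 of 10 were called, beside 0.0% of all genes, and 4 had an unadjusted p below 0.05, beside 3.66% of all genes. DESeq2 called 0 members, beside 0.00276% of genes. Gfap was at 348, 354 and 400 CPM in KO, below all 3 WT libraries of the cohort, with -0.46 ± 0.16 (adjusted p = 0.942 in edgeR). Serpina3n was at 36.8, 40.4 and 34.7 CPM, also below WT, with -0.74 ± 0.22 (edgeR adjusted p = 0.942). Cd44 had the opposite sign, at 8.82, 8.10 and 5.55 CPM against 4.02 to 5.46 CPM, with 0.76 ± 0.33 (edgeR adjusted p = 0.942). Lcn2 was at 0.266, 1.17 and 0.0584 CPM, with -3.01 ± 1.0, a value that rests in part on the high WT library named above. Osmr, S100a6, Vim and Steap4 were at -0.26 ± 0.20, -0.35 ± 0.36, -0.16 ± 0.22 and -0.16 ± 0.83, and Timp1 and Cp at 0.31 ± 0.41 and 0.21 ± 0.20. All 9 microglial markers also had lower values in KO than in WT, 2 of them at an unadjusted p below 0.05, and summed to 262 to 282 CPM against 309 to 375 CPM. Their part in the members' levels was not tested. With no filter on low counts edgeR called 3 of these, Gfap, Serpina3n and Lcn2.

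The next comparison asked whether the RIPK1 mutation changes the members in 5xFAD. All 10 had lower values in D138N 5xFAD than in 5xFAD, with a median log2 fold change of -0.24 against -0.01 over all genes, and 0 of 10 were called in edgeR, beside 0.365% of all genes. At an unadjusted p below 0.05 there were 4 members, all lower, beside 5.75% of all genes lower: Vim, Serpina3n, Lcn2 and S100a6. Serpina3n was at 130, 193 and 136 CPM, below all 3 5xFAD libraries at 204 to 231 CPM, with -0.50 ± 0.13 (edgeR adjusted p = 0.21). Vim was at 81.5, 139 and 92.9 CPM, with -0.53 ± 0.18 (edgeR adjusted p = 0.281), and replicate 2 overlapped 5xFAD. S100a6 was at 9.80, 16.8 and 10.1 CPM, with -0.52 ± 0.19 (edgeR adjusted p = 0.328) and the same library inside the 5xFAD range. Lcn2 was at 0.270, 0.601 and 0.195 CPM, with -2.45 ± 0.92 (edgeR adjusted p = 0.331). It lay in the range of WT and below all 5xFAD libraries.

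Gfap, the filament gene, was at 1630, 2393 and 1777 CPM in D138N 5xFAD, with -0.26 ± 0.14 against 5xFAD (edgeR adjusted p = 0.466). Replicate 2 was above all 5xFAD libraries and the other 2 below them. Osmr was at 28.4, 31.5 and 32.4 CPM and Cd44 at 12.5, 13.8 and 17.0 CPM, both within the 5xFAD range, with -0.07 ± 0.14 and -0.19 ± 0.24 (edgeR adjusted p = 0.883 and 0.786). As a share of the 5xFAD mean, D138N 5xFAD held 83.6% for Gfap, 95.8% for Osmr, 88.0% for Cd44, 71.0% for Serpina3n, 70.4% for S100a6 and 69.5% for Vim. Timp1, Cp and Steap4 were at -0.15 ± 0.23, -0.22 ± 0.18 and -0.20 ± 0.75.

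The count in D138N 5xFAD turned on 1 library and on the test. Without D138N 5xFAD 2, edgeR called 3 members lower: Vim (-0.79, adjusted p = 0.0222), Serpina3n (-0.70, adjusted p = 0.00859) and S100a6 (-0.81, adjusted p = 0.0223). Other single omissions brought the values as near to 0 as -0.38 for Vim, -0.40 for Serpina3n and -0.38 for S100a6. DESeq2 called 1, Serpina3n (-0.50, adjusted p = 0.0264), beside 1.71% of all genes, and the authors' deposited table holds 0 of 10 under 0.05. That table's own mark of a rise in 5xFAD covers Lcn2 alone among the members (adjusted p = 0.0821 there). D138N 5xFAD 2 also stood apart in cell markers. Its neuron markers summed to 12388 CPM and its oligodendrocyte and precursor markers to 8044 CPM, each the highest of all 24 libraries. Its fibroblast and meningeal markers summed to 43.2 CPM, the lowest of all. Whether these differences bear on the count was not tested. Thy1 was lower in D138N 5xFAD, at 1707, 2239 and 1593 CPM, than in 5xFAD, at 2260 to 2703 CPM. The highest Thy1 level in D138N 5xFAD was also that of replicate 2. With each library's Thy1 level as a covariate the values nearer 0 than before were 0.01 ± 0.18 for Gfap, -0.15 for Vim and S100a6, -0.08 ± 0.13 for Serpina3n, -0.03 ± 0.35 for Timp1 and -0.66 ± 1.37 for Lcn2. Those farther from 0 were -0.52 ± 0.35 for Cd44, -0.16 ± 0.22 for Osmr, -0.69 ± 0.23 for Cp and -2.25 ± 1.14 for Steap4. The microglial markers summed to 749 to 826 CPM in D138N 5xFAD, below the 874 CPM of the lowest 5xFAD library, with 2 of 9 lower at an unadjusted p below 0.05. The general astrocyte markers summed to 9077 to 10826 CPM, above all 5xFAD libraries. The part of these cells in the members' levels was not tested.

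Next, KO 5xFAD was compared with 5xFAD to ask the same of ZBP1. Of the 10 members 8 had lower values in KO 5xFAD, the median log2 fold change was -0.71 against -0.01 over all genes, and 0 were called in edgeR, where 0.0% of all genes were called and the smallest adjusted p of any gene was 0.112. At an unadjusted p below 0.05 there were 5 members, all lower, beside 5.8% of all genes lower: Gfap, Vim, Serpina3n, Osmr and S100a6. These same 5 did not overlap between groups, beside 7.86% of all genes with all KO 5xFAD libraries lower. Gfap was at 1759, 1642 and 1601 CPM in KO 5xFAD and at least 2108 CPM in 5xFAD, a log2 fold change of -0.74 ± 0.16 (unadjusted p = 0.00033, adjusted p = 0.179 in edgeR). Serpina3n was at 146, 122 and 117 CPM against 168 to 314 CPM, with -0.86 ± 0.21 (edgeR adjusted p = 0.26). Both were 55.1% to 59.6% of the 5xFAD mean.

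Osmr, the oncostatin M receptor subunit, was at 32.1, 27.1 and 27.5 CPM in KO 5xFAD against 34.0 to 64.7 CPM, with -0.71 ± 0.19 (edgeR adjusted p = 0.325). Vim was at 89.4, 100 and 98.3 CPM against 114 to 221 CPM, with -0.71 ± 0.21 (edgeR adjusted p = 0.437). S100a6 was at 6.91, 6.40 and 7.56 CPM against 7.83 to 19.6 CPM, with -1.06 ± 0.35 (edgeR adjusted p = 0.466). For all 3 the KO 5xFAD libraries lay close together while the 5xFAD libraries were spread. Cd44 was at 15.7, 12.3 and 14.7 CPM, inside the 5xFAD range, with -0.59 ± 0.30 (edgeR adjusted p = 0.595). Cp and Timp1 had higher values in KO 5xFAD, 0.29 ± 0.20 and 0.07 ± 0.40, Steap4 was at -0.13 ± 0.76, and Lcn2 at 0.900, 1.29 and 0.535 CPM, with -1.03 ± 0.94 (edgeR adjusted p = 0.753).

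**Figure D3:**
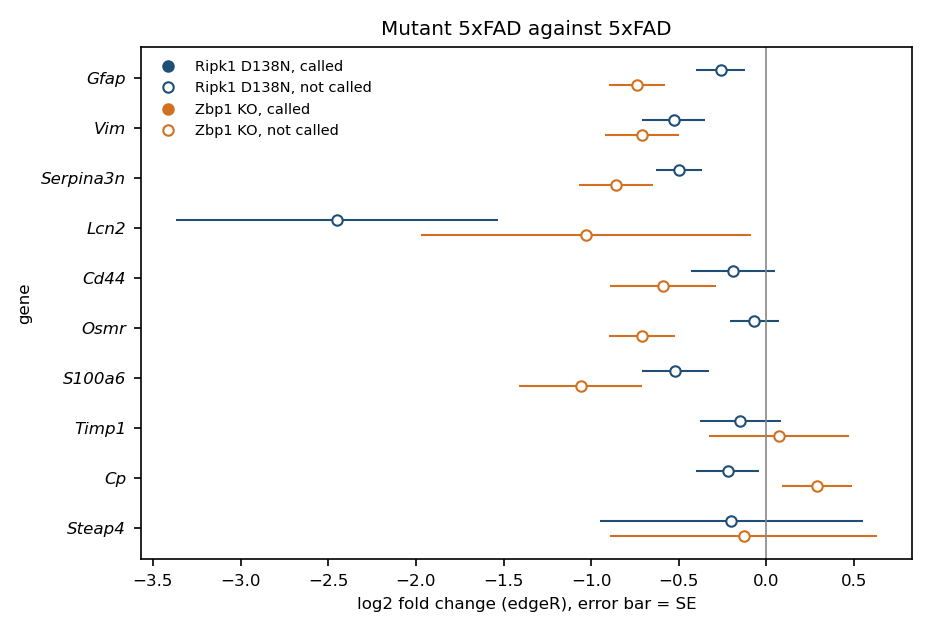
Log2 fold change of mutant 5xFAD against 5xFAD for each of the 10 genes, D138N in blue and Zbp1 KO in orange, from edgeR. Error bars are SE and open points are not called. No point is filled, and the 6 genes raised in 5xFAD lie between -0.07 and -0.53 for D138N and between -0.59 and -1.06 for KO.

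The KO 5xFAD count depended on the test. DESeq2 called 3 members lower, Gfap (adjusted p = 0.00327), Serpina3n (adjusted p = 0.0108) and Osmr (adjusted p = 0.0474), beside 1.02% of all genes. The authors' deposited table, which gives 5xFAD over KO 5xFAD, lists the same 3 under 0.05, with log2 fold changes of 0.74, 0.86 and 0.71. Its own mark of a rise in 5xFAD also covers Vim and S100a6 (adjusted p = 0.0632 and 0.0625 there). With 1 library left out, the log2 fold change ran from -0.91 to -0.49 for Gfap and from -1.05 to -0.58 for Serpina3n. The ranges were -0.90 to -0.39 for Vim, -0.91 to -0.42 for Osmr, -1.36 to -0.80 for S100a6 and -0.90 to -0.15 for Cd44. Without 5xFAD 3 edgeR called Gfap (-0.91, adjusted p = 0.0077) and Serpina3n (-1.05, adjusted p = 0.039). Thy1 was at 1484 to 1597 CPM in KO 5xFAD and 1474 to 2182 CPM in 5xFAD, lowest in that replicate 3. With Thy1 as a covariate, the values were -0.43 ± 0.15 for Gfap, -0.35 for Serpina3n and Vim, -0.50 for S100a6, -0.59 for Osmr and -0.41 for Cd44. Timp1 was at -0.36, Cp at 0.19, Lcn2 at 0.34 and Steap4 at 0. All 9 microglial markers had an unadjusted p below 0.05 in the lower direction, and they summed to 566 to 714 CPM against 805 to 1420 CPM. The general astrocyte markers summed to 10292 to 11422 CPM against 10691 to 11889 CPM, with 8 of 15 lower at an unadjusted p below 0.05. The part of these cells in the members' levels was not tested.

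**Figure D4:**
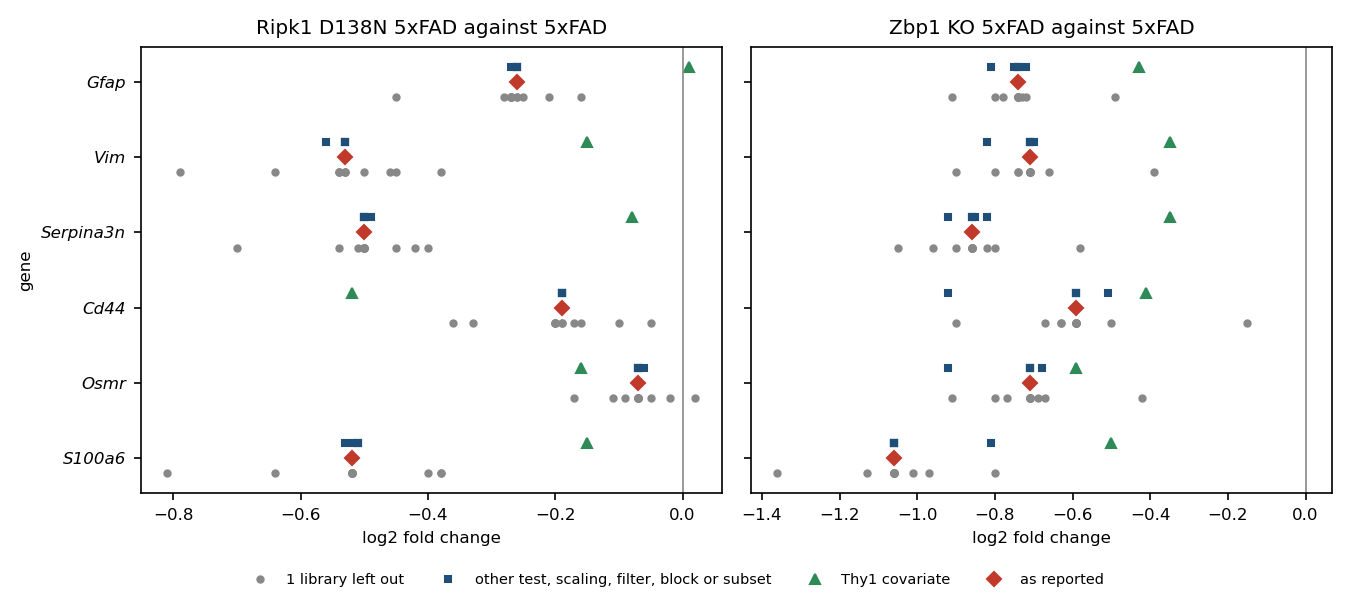
Log2 fold change of mutant 5xFAD against 5xFAD for the 6 genes raised in 5xFAD, as reported (red diamonds), with 1 library left out (grey circles), under another test, scaling, filter, block or subset (blue squares), and with Thy1 as a covariate (green triangles). For D138N, Gfap moves from -0.26 to 0.01 with the Thy1 covariate, while for KO every value lies below 0.

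Carriers were also compared with noncarriers inside each mutant line. In D138N 5xFAD against D138N 6 of 10 members were called higher, beside 3.12% of all genes higher, and they were the 6 raised in 5xFAD; Lcn2, Timp1, Cp and Steap4 were at -0.07, 0.18, 0.06 and 0.58. Their log2 fold changes were 2.40 ± 0.15 for Gfap, 1.86 ± 0.14 for Serpina3n, 1.67 ± 0.15 for Osmr, 1.66 ± 0.20 for S100a6, 1.58 ± 0.25 for Cd44 and 1.40 ± 0.18 for Vim. In KO 5xFAD against KO 4 of 10 were called higher, beside 1.18% of all genes higher. They were Gfap (2.18 ± 0.16), Osmr (1.80 ± 0.20), Serpina3n (1.78 ± 0.22) and Vim (1.13 ± 0.22, edgeR adjusted p = 0.0168). The Vim call was lost when KO 1, KO 2, KO 5xFAD 2 or KO 5xFAD 3 was left out. Cd44 and S100a6 were each at 0.92, with SE of 0.31 and 0.35 (edgeR adjusted p = 0.301 and 0.447). Lcn2, Timp1, Cp and Steap4 were at 0.89, 0.30, 0.28 and 0.84. Cd44 was called without 5xFAD 2 (adjusted p = 0.0454).

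Whether the 5xFAD effect itself differed on the mutant background was tested as an interaction. For D138N 0 of 10 members were called, beside 0.0281% of all genes, and Serpina3n (-0.54 ± 0.19, unadjusted p = 0.0149) and Vim (-0.55 ± 0.25, unadjusted p = 0.0463) were under 0.05 unadjusted in edgeR, 2 of 10 beside 7.47% of all genes. The other members were at -2.40 ± 1.34 for Lcn2, -0.57 ± 0.28 for S100a6, -0.52 ± 1.08 for Steap4, -0.28 ± 0.20 for Gfap, -0.24 ± 0.25 for Cp, -0.17 ± 0.21 for Osmr, 0.02 ± 0.33 for Timp1 and 0.10 ± 0.34 for Cd44. DESeq2 called 0 members, beside 0.36% of genes. For KO 0 of 10 were called, beside 0.0% of all genes, with Cd44 alone under 0.05 unadjusted in edgeR (-1.36 ± 0.44, unadjusted p = 0.00853, adjusted p = 1.0), 1 of 10 beside 2.26% of all genes. DESeq2 called 0 here too, beside 0.0% of genes. The Cd44 value combines a higher level in KO than in WT with a lower level in KO 5xFAD than in 5xFAD. For Serpina3n in the KO line, whose value was lower both in KO than in WT and in KO 5xFAD than in 5xFAD, the interaction was -0.12 ± 0.30. Gfap, Vim, Osmr and S100a6 were at -0.29 ± 0.22, -0.55 ± 0.30, -0.46 ± 0.28 and -0.71 ± 0.50. Lcn2, Timp1, Cp and Steap4 were at 1.98 ± 1.35, -0.24 ± 0.58, 0.08 ± 0.28 and 0.03 ± 1.13.

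Across the 4 groups of a cohort the 6 raised members shared 1 order at its top: every one of the 6 carrier libraries lay above every one of the 6 noncarriers. This held for 6 of 10 members in each cohort, beside 5.25% (Ripk1 cohort) and 3.05% (Zbp1 cohort) of all genes. For Gfap the carriers were at 1630 to 2393 CPM and the noncarriers at 289 to 398 CPM in the Ripk1 cohort, and at 1601 to 3681 and 348 to 567 CPM in the Zbp1 cohort. The narrowest gap was that of S100a6 in the Zbp1 cohort, with carriers from 6.40 CPM and noncarriers up to 5.81 CPM. For Lcn2, Timp1, Cp and Steap4 carriers and noncarriers overlapped in both cohorts. By group mean 5xFAD was highest and mutant 5xFAD next for each of the 6. These neighbours overlapped for 5 of the 6 in the Ripk1 cohort, Serpina3n excepted, and for 1 of the 6, Cd44, in the Zbp1 cohort. Over all genes, 7.33% had every D138N 5xFAD library below every 5xFAD library. WT and D138N overlapped for all 6. By group mean KO lay below WT for Gfap, Vim, Serpina3n, Osmr and S100a6 and above WT for Cd44. None of these was called (edgeR adjusted p = 0.947 for Vim and 0.942 for each of the others).

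The ligands and relays that act above Osmr and on STAT3 were given by a list of 24 genes. In 5xFAD against WT 9 were called higher and 1 lower of 22 tested in the Ripk1 cohort, and 6 higher and 0 lower of 23 in the Zbp1 cohort. Over all genes, 8.11% and 3.0% were called higher. Osm, the ligand of Osmr, was at 0.159, 0.430 and 0.165 CPM in WT and 2.15, 0.910 and 1.05 CPM in 5xFAD of the Ripk1 cohort (log2 fold change 2.40 ± 0.64, edgeR adjusted p = 0.022). It was also called higher in the Zbp1 cohort, at 0.870, 1.02 and 0.665 CPM in 5xFAD, but WT held only 0 to 2 counts per library. Lif and Clcf1, other ligands of the family, rose in the Ripk1 cohort by 1.36 ± 0.37 and 1.12 ± 0.22. They were at 0.55 ± 0.36 and 1.48 ± 0.49 without a call in the Zbp1 cohort. Of the receptors, Il6ra rose in both (0.56 ± 0.16 and 1.04 ± 0.15). Il6st, the shared signalling subunit of the family, rose in the Zbp1 cohort (0.63 ± 0.12) and was at 0.07 ± 0.11 in the Ripk1 cohort. Lifr fell by 0.43 in the Ripk1 cohort (edgeR adjusted p = 0.0362) and was at 0 ± 0.12 in the other.

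Stat3 itself was at 56.0, 52.7 and 55.2 CPM in WT and 79.3, 79.1 and 85.3 CPM in 5xFAD of the Ripk1 cohort, with a log2 fold change of 0.58 ± 0.07 (edgeR adjusted p = 7.86e-05). The Zbp1 cohort had 71.2, 53.8 and 53.0 CPM in WT and 113, 90.5 and 95.8 CPM in 5xFAD, with 0.75 ± 0.13 (edgeR adjusted p = 0.00347). Socs3, the feedback inhibitor induced by STAT3, rose by 2.56 ± 0.25 and 1.61 ± 0.40. In mutant 5xFAD against 5xFAD 0 genes of this list were called by edgeR in either cohort. For D138N and KO, 5 and 4 had an unadjusted p below 0.05, and DESeq2 called 1 and 0. Over all genes edgeR called 0.365% and 0.0%, 12.3% and 8.81% had an unadjusted p below 0.05, and DESeq2 called 1.71% and 1.02%. Socs3 was at 3.11, 3.54 and 4.62 CPM in D138N 5xFAD, below 7.50 to 9.54 CPM in 5xFAD, with -1.13 ± 0.23 (edgeR adjusted p = 0.0632), while Stat3 was at -0.01 ± 0.07. For KO 5xFAD, Socs3 was at -0.75 ± 0.38 and Stat3 at -0.29 ± 0.13 (edgeR adjusted p = 0.59 and 0.549).

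Other genes used to class reactive astrocytes were described beside the members. Over all genes, 8.11% (Ripk1 cohort) and 3.0% (Zbp1 cohort) were called higher in 5xFAD against WT. Of 4 further pan-reactive genes 3 rose in both cohorts: the chemokine Cxcl10 (6.02 ± 0.43 and 2.80 ± 0.50), the asparaginase Aspg (2.60 ± 0.24 and 2.74 ± 0.39) and the sphingosine phosphate receptor S1pr3 (1.44 ± 0.10 and 1.5 ± 0.36). Of 11 tested genes of the set called neurotoxic or A1, 8 rose in both cohorts, the guanylate-binding protein Gbp2 by 2.94 ± 0.24 and 2.54 ± 0.39 and the MHC class I gene H2-D1 by 2.86 ± 0.25 and 2.23 ± 0.17. Of 11 tested genes of the injury set called A2, 4 rose in the Ripk1 cohort. The Zbp1 cohort had 2, the transglutaminase Tgm1 (3.14 ± 0.41 and 3.78 ± 0.65) and the endotoxin co-receptor Cd14 (2.56 ± 0.18 and 2.65 ± 0.40) in both. Many genes of these sets are also expressed by microglia, whose markers rose as well.

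In D138N 5xFAD against 5xFAD, 5 of 11 A1 genes were called lower, among them H2-T23 (-1.29 ± 0.15, edgeR adjusted p = 0.00216), Iigp1 (-2.31 ± 0.28, edgeR adjusted p = 0.00221) and Gbp2 (-1.42 ± 0.22, edgeR adjusted p = 0.012), beside 0 of the 10 members. Cxcl10 was called lower too (-2.25 ± 0.33, edgeR adjusted p = 0.00797), at 3.40, 3.67 and 2.28 CPM against 17.0, 7.21 and 19.9 CPM. Iigp1, Gbp2 and Cxcl10 are known as interferon-induced genes. With the Thy1 covariate 0 of these A1 genes and not Cxcl10 were called: H2-T23 was at -0.95 ± 0.21, Iigp1 at -2.22 ± 0.48, Gbp2 at -1.09 ± 0.34 and Cxcl10 at -1.60 ± 0.52. Only 2 A1 genes were called without D138N 5xFAD 1, without D138N 5xFAD 3 or without 5xFAD 1, and 3 without 5xFAD 2. The Cxcl10 call was lost without D138N 5xFAD 1 or 3. Thy1 and the summed microglial markers, given above, were lower in D138N 5xFAD as well, and their part in these calls was not tested. Over all genes, 0.365% were called in either direction in this comparison. The difference between the counts of the A1 genes and the members was not tested. In KO 5xFAD against 5xFAD 0 of 11 A1 genes were called by edgeR, 7 were lower at an unadjusted p below 0.05 and DESeq2 called 3. Over all genes, 5.8% were lower at an unadjusted p below 0.05 in edgeR and DESeq2 called 1.02%. H2-T23 was at -1.07 ± 0.18 (edgeR adjusted p = 0.116) and Cxcl10 at -1.56 ± 0.45 (edgeR adjusted p = 0.408).

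Microglial signals known to induce reactive astrocytes were higher in both cohorts, 7 of 8 tested in the Ripk1 cohort and 5 of 7 in the Zbp1 cohort. Over all genes, 8.11% and 3.0% were called higher. The complement gene C1qa rose by 2.81 ± 0.16 and 2.42 ± 0.20, and Spp1, osteopontin, which is also a CD44 ligand, by 2.49 ± 0.36 and 3.21 ± 0.36. In KO 5xFAD against 5xFAD 0 of 7 were called by edgeR and 5 were lower at an unadjusted p below 0.05, beside 5.8% of all genes. C1qb, C1qa and C1qc were at -1.18 ± 0.18, -1.14 ± 0.19 and -1.21 ± 0.22 (edgeR adjusted p = 0.112, 0.116 and 0.121). DESeq2 called 5 of this list there, beside 1.02% of all genes. In D138N 5xFAD they were at -0.59 ± 0.14, -0.63 ± 0.15 and -0.51 ± 0.16, with 0 of 8 called in edgeR, 3 at an unadjusted p below 0.05 and 2 called by DESeq2. The shares of all genes for these 3 rules, in either direction, were 0.365%, 12.3% and 1.71%.

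Partners of single members were described in 5xFAD against WT, where 8.11% (Ripk1 cohort) and 3.0% (Zbp1 cohort) of all genes were called higher. Whether the counts of these lists exceed those shares was not tested. Of 6 intermediate filament partners of Gfap and Vim, 2 were called higher and 1 lower in the Ripk1 cohort, against 0 for the Zbp1 cohort. The Ripk1 cohort count of 3 fell to 0 without WT 2 and to 1 without WT 1, 5xFAD 1, 5xFAD 2 or D138N 5xFAD 3. The lamin gene Lmna was at 0.32 ± 0.10 and 0.22 ± 0.15. Of 12 CD44 ligands and hyaluronan enzymes 2 rose in both cohorts, Spp1 and Msn (1.17 ± 0.09 and 1.29 ± 0.14), whose product moesin links CD44 to actin. Of 11 tested S100 genes and their partners 7 rose in the Ripk1 cohort, S100a11 by 1.55 ± 0.29 and Anxa2 by 1.30 ± 0.19. The Zbp1 cohort had 1 call of 10, Anxa2 (1.12 ± 0.28), and DESeq2 called 3. Of 14 tested metalloproteinases and their inhibitors 2 rose in each cohort, one of them Adam17 (0.34 ± 0.10 and 0.71 ± 0.11), an ectodomain sheddase. Of 12 tested partners of Steap4, Lcn2 and Cp in metal handling, 4 were higher and 1 lower in the Ripk1 cohort, and 2 higher in the other. Haem oxygenase Hmox1 rose by 1.46 ± 0.19 and 1.21 ± 0.28 and transferrin, Trf, by 0.93 ± 0.18 and 0.87 ± 0.14.

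The genes whose pattern lay closest to each member were found among 20644 genes tested in both cohorts. The measure was the root mean square distance over 6 differences, each group's mean log2 CPM minus that of its own WT, with 0.5 CPM added. For Gfap they were Slc15a3, Cxcl5 and Lag3, at 0.13, 0.15 and 0.15. For Vim they were Vav1, Il21r and Gpr65, at 0.10 to 0.12, and for Serpina3n Slamf9, Ptpn6 and Laptm5, at 0.10 to 0.14. The 6 differences share their WT libraries, so these distances are a description. For Cd44 the nearest were Piezo2, Dkk2 and Xlr, at 0.19 to 0.22, and for Lcn2 none lay nearer than 0.38. For Osmr they were Naip2, Plaur and Klhl6, at 0.11 to 0.14, and for S100a6 Gpr65, Apobec1 and Clec5a, at 0.15 to 0.18. Timp1, Cp and Steap4 had 1237, 4101 and 524 genes within 0.25, so no single gene stands for their pattern. Within that distance Gfap, Vim, Serpina3n, Osmr and S100a6 had 15, 59, 18, 29 and 21 genes, Cd44 had 6 and Lcn2 had 0. The nearest other member lay at 0.45 for Gfap, 0.35 for Serpina3n, 0.34 for Osmr and 0.47 for Cd44. Each of these was farther than the 3 genes named for that member. Those genes were the closest of 20644, while the nearest member was picked from the few other members. With such unequal numbers of candidates, this comparison cannot tell whether members resemble each other less than they resemble other genes. The closest pair among the 6 raised members was Vim and S100a6, at 0.23.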

How the data were processed

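Polyadenylated hippocampal RNA of 24 libraries (2 cohorts, 4 genotypes of 3 libraries each) was analysed, with 4 RNA immunoprecipitation (RIP) libraries described apart. For each cohort the authors deposited 1 table of raw counts by Ensembl gene ID, and for the RIP libraries counts by gene symbol. The deposited comparison tables list, per the file headers, each gene's log2 fold change with raw and adjusted p-values. HISAT2, edgeR 4.0.16 and DESeq2 1.42.1 are named in the submitters' processing notes, as are 2 builds, GRCm38 (mm10) and GRCm39 (mm39). The step at which each build was used, the counting options and strand are not stated there. Reads of overlapping or antisense genes may therefore not be told apart.

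In R 4.3.3, edgeR 4.0.16 was fitted to the 12 libraries of each cohort (TMM scaling, filterByExpr by genotype, quasi-likelihood test, 1 mean per genotype), leaving 21376 and 21274 genes, and to all 24 libraries for the difference between cohorts. The SE is the absolute log2 fold change divided by the square root of F. DESeq2 1.42.0 was an alternative. Others were size factors of the RLE kind, no filter, a replicate block, 2 genotypes only, a Thy1 covariate, leaving out low-Malat1 libraries, and leaving out each library. The fits were tested on simulated data with known changes. None of the 24 pairs of libraries within a genotype agreed within sampling noise. All 10 members are named in each comparison by rule. From each list up to 4 genes are named, first those called in both cohorts by the largest mean change, then those called in 1, and in mutant 5xFAD comparisons those of smallest p. The members and lists were chosen with earlier results of these data known. Clcf1, S100a10 and Spp1 stand in 2 lists each. Promoter windows came from RefSeq (GRCm38.p6); no coordinate comes from the count tables.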

Additional observations from a re-analysis of the deposited data

How the results depend on the processing

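Each of the 11 counts of called members was recomputed under every alternative, 191 recomputations, of which 10 moved by more than 1.5 times. For D138N 5xFAD against 5xFAD, where edgeR called 0, DESeq2 called 1, no filter 2, and leaving out 1 library gave 0 to 3, with 3 only without D138N 5xFAD 2. For KO 5xFAD against 5xFAD, where edgeR called 0, DESeq2 called 3, no filter 5, and leaving out 1 library gave 0 to 2, with 2 only without 5xFAD 3. With no filter, 3 members were called in KO against WT, 1 (Cd44) in the KO interaction and 1 (Lcn2) in the difference between cohorts. All other counts stayed within 1.5 times: 6 to 7 for 5xFAD against WT in the Ripk1 cohort, 5 to 6 in the Zbp1 cohort, 6 for D138N 5xFAD against D138N and 3 to 6 for KO 5xFAD against KO.

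The series' design text calls the mice paired but ties no replicate number to a pair, so the numbers were not used to pair libraries. Residuals of same-numbered libraries correlated at -0.218 to 0.243 (median 0.025) in the Ripk1 cohort and -0.111 to 0.402 (median 0.072) in the Zbp1 cohort, with 5 and 6 of 18 pairs above 0.1. For different-numbered libraries the medians were -0.013 and -0.038, with 6 and 3 of 36 above 0.1. Of 12 libraries in each cohort 8 and 9 had their highest mean correlation with their own number. This is a hint from the data, and the design text does not settle what the numbers pair. With the replicate number as a block, 2 members were called in KO 5xFAD against 5xFAD, Gfap (-0.72, adjusted p = 0.0472) and Serpina3n (-0.82, adjusted p = 0.0305), with 41 of all genes called, and the block moved no other count of members by more than 1.5 times.

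Of 1910 recomputed values of single members 1873 kept their side of the threshold, 7 lost the call and 30 gained one. No called value changed sign, and 79 values that were called in neither changed sign, 21 of them for Steap4, 15 for Timp1 and 14 for Cp. The cause was not tested. The number of genes called overall moved more: 78 for D138N 5xFAD against 5xFAD (0 with the Thy1 covariate, 673 without D138N 5xFAD 2), 0 for KO 5xFAD against 5xFAD (498 with no filter), 6 for the D138N interaction (0 to 145), 0 for the KO interaction (29 with no filter), 0 for KO against WT (94 with no filter), 0 for D138N against WT (2 with no filter) and 0 for the cohort difference (593 without Zbp1 cohort 5xFAD 2). For 5xFAD against WT it was 3449 (1757 to 4224) and 665 (339 to 1121), for D138N 5xFAD against D138N 721 (438 to 1193) and for KO 5xFAD against KO 261 (123 to 877). Of 44 counts over the related lists 25 moved by more than 1.5 times under some alternative; beyond DESeq2 and leaving out each library, the alternatives for these lists were chosen after seeing the data. Among them, the IL-6 list in the Ripk1 cohort ran from 5 to 11 (10 as reported), the A1 genes in the Zbp1 cohort from 5 to 8 (8), the A1 genes in D138N 5xFAD from 0 to 5 (5), the filament partners in the Ripk1 cohort from 0 to 3 (3) and the S100 genes in the Zbp1 cohort from 0 to 4 (1). Low counts limit Lcn2 and Steap4, which held 0 to 289 and 4 to 92 counts per library.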

Other observations

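The members were also counted in 4 RIP libraries, inputs and ZBP1 immunoprecipitates (IPs) of WT and of 5xFAD hippocampus, with 1 library of each and no test. These libraries hold 5742746 to 9444018 counts, and intervals are exact 95% Poisson intervals that cover counting error only. Gfap had 36 counts in the 5xFAD input (3.81 CPM, interval 2.67 to 5.28) and 28 in the WT input (3.14 CPM, 2.09 to 4.54). In the IPs it had 21 counts in 5xFAD (3.08 CPM, 1.91 to 4.71) and 15 in WT (2.61 CPM, 1.46 to 4.31). All 4 intervals overlap. Serpina3n had 36 counts in the 5xFAD input (3.81 CPM, 2.67 to 5.28) and 20 in the WT input (2.24 CPM, 1.37 to 3.47). S100a6 had 14 counts (1.48 CPM, 0.81 to 2.49) and 4 (0.449 CPM, 0.122 to 1.15) in the same inputs. In the mRNA libraries Gfap was at 289 to 3681 CPM, so its share of these inputs is far below that in the mRNA libraries, while Steap4 was at 3.66 to 4.04 CPM here and 0.131 to 2.17 CPM there. The RIP libraries are described in the labels as a different kind of library, counted by symbol. For none of the 10 genes did the interval of an IP lie above that of its own input, or that of 5xFAD above that of WT.

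T and NK lymphocyte markers, a group not used above, summed to 0.794 to 1.82 CPM in WT and 3.67 to 5.84 CPM in 5xFAD of the Ripk1 cohort, where 4 of 6 tested were called higher. In D138N 5xFAD they summed to 1.87 to 2.67 CPM, below all 5xFAD libraries, and in the Zbp1 cohort to 0.607 to 1.17 CPM in WT, 2.20 to 3.86 CPM in 5xFAD and 2.25 to 2.84 CPM in KO 5xFAD. Oligodendrocyte and precursor markers summed to 4502 to 5208 CPM in WT and 5741 to 7137 CPM in 5xFAD of the Ripk1 cohort, and Mobp and Mbp, both myelin genes, were called higher there (0.56 ± 0.13 and 0.47 ± 0.14 on the log2 scale, edgeR adjusted p = 0.0129 and 0.0371). Pdgfra, a precursor marker of the same list, fell by 0.48 (edgeR adjusted p = 0.0166). In the Zbp1 cohort the same 2 genes were at 0.26 ± 0.11 and 0.24 ± 0.13 and not called (edgeR adjusted p = 0.326 and 0.513).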
